A study of Mus musculus with 16 samples.

Results

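The 10 genes described here encode apolipoproteins, the proteins that coat, load and steer lipoprotein particles: Apoa1, Apoa2, Apoa4, Apoa5, Apob, Apoc1, Apoc3, Apoe, Apom and Apoh. Each was taken from probe sets annotated with exactly 1 gene symbol, and, where a gene had several, the brightest by mean over the 16 arrays was kept. The 10 genes are 10 of 18820 genes so measured, on a table of 35556 probe sets.

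RNA of the whole liver was profiled in male mice at 7 days of age, with 1 array per animal and 4 animals per genotype. All animals were of a mixed C57/BL6 and SV129Ola background. IKKβ triple KO mice lack TRAF2, caspase-8 and IKKβ in liver parenchymal cells, where alfp-Cre, a transgene driven by albumin and alpha-fetoprotein regulatory sequences, deletes the loxP-flanked alleles. RIPK3 triple KO mice lack TRAF2 and caspase-8 in the same cells and carry a constitutive Ripk3 deletion, which affects every cell of the body. TRAF2/Casp8 KO mice have the parenchymal deletion of Traf2 and Casp8 alone. WT mice were littermates with loxP-flanked alleles and no Cre. The labels do not say from which of the crosses each WT animal came.

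The liver secretes apolipoprotein B on very-low-density lipoprotein (VLDL), which carries triglyceride to other tissues, where lipoprotein lipase releases the fatty acids. Apolipoproteins C-III and A-V act on that lipase in opposite directions, the first slowing and the second aiding the clearance of triglyceride. Apolipoproteins A-I and A-II form the body of high-density lipoprotein (HDL), and apolipoprotein E is the ligand by which receptors take up particle remnants. TRAF2 is an adaptor of tumour necrosis factor receptor signalling, caspase-8 is the protease that starts death-receptor apoptosis and holds back necroptosis, a lytic death that needs the kinase RIPK3, and IKKβ activates NF-kB.

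Values are log2 signals, so a difference of 1 is a 2-fold difference. A gene was called where limma's adjusted p, by Benjamini-Hochberg over all 35556 probe sets, was under 0.05. Casp8 was 8.50 to 9.11 in the 12 knockout livers, against 9.76 to 10.07 in WT livers, Ripk3 was 4.07 to 4.40 in RIPK3 triple KO livers, against 5.62 to 6.42 in the others, and Ikbkb was 7.07 to 7.30 in IKKβ triple KO livers, against 7.50 to 8.06 in the others. Traf2 went against the labels: it averaged 6.89 in IKKβ triple KO livers, 7.32 in RIPK3 triple KO livers, 7.30 in TRAF2/Casp8 KO livers and 6.28 in WT livers. Where its probes lie relative to the deleted exons is not given in the sources used here, so it does not check the deletion, and every direction below goes by the label. Within a genotype, arrays correlated at 0.981 to 0.991 over all probe sets. WT replicate 1 and TRAF2/Casp8 KO replicate 4 stood apart, the first by its low array weight of 0.461 and the second by a different prefix in its array name. The 16 genes of a list of hepatocyte plasma proteins averaged 12.43 to 12.69 in each of the 16 arrays.

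Of these genes, 4 lie side by side on chromosome 9. In the GRCm38.p6 assembly, Apoa1 occupies chr9:46228630-46230469, Apoc3 chr9:46233050-46235636, Apoa4 chr9:46240844-46243458 and Apoa5 chr9:46268608-46271921. Apoc1, at chr7:19689480-19692659, lies beside Apoe, at chr7:19696244-19701310. The others stand alone, Apoa2 at chr1:171221564-171226379, Apob at chr12:7977629-8016839, Apoh at chr11:108395297-108414396 and Apom at chr17:35128997-35131801.

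The 250 bases upstream of the annotated starts of 3 genes of the chromosome 9 cluster are shown because these genes share the cluster with Apoc3, the gene called below. They are RefSeq sequences of GRCm38.p6 on the plus strand, written 5′ to 3′. Capitals mark CAAAGNNCA, a simplified form of the site bound by the liver nuclear receptor HNF4, and the TATA box TATAAA. The windows are chr9:46228380-46228629 for Apoa1, chr9:46240594-46240843 for Apoa4 and chr9:46268358-46268607 for Apoa5.
Apoa1: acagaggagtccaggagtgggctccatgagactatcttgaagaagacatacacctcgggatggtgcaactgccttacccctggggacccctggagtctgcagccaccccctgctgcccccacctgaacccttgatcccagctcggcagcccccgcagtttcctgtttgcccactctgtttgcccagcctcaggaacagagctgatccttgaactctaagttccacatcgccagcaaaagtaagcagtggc
Apoa4: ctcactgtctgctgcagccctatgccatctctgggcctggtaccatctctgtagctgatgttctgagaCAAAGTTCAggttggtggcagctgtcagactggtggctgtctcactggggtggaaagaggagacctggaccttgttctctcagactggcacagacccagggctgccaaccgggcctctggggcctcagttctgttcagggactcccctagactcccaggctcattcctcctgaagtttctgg
Apoa5: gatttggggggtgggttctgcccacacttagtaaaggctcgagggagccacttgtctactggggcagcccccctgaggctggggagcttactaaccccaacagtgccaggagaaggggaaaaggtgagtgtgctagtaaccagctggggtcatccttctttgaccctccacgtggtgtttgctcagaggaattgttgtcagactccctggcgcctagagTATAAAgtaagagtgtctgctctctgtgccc

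Windows were used for 8 of the 10 genes, all but Apoc1 and Apoc3, 12 windows in all where a gene has several starts, and each was searched on both strands. The CAAAGNNCA motif stood in 3 of the 12 windows, those of Apoa4, Apob and Apoh, and in 5.49% of all 32851 mouse windows of this length. This looser form was taken after the exact forms CAAAGGTCA and CAAAGTCCA had matched 0 of the same 12 windows. Its shares are therefore a description and not a test of enrichment. TATAAA stood in 5 of the 12, with 1 site counted in both of the overlapping windows of Apoa5, and in 12.4% of all windows, and the nuclear receptor half-site AGGTCA in 2 of the 12 and in 14.0%. The NF-kB motif GGGANTTTC was in 0 of the 12 windows and in 0.941% of all windows. A match is a string of letters and not a shown binding site, and an absent match says nothing of the factor.

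Apoc3, whose protein inhibits lipoprotein lipase and slows remnant uptake, was the 1 gene of the 10 called in any comparison. Its signal was 10.46, 10.89, 10.81 and 10.49 in IKKβ triple KO livers, 10.71, 10.33, 10.91 and 10.91 in RIPK3 triple KO livers, 9.98, 9.996, 9.54 and 9.59 in TRAF2/Casp8 KO livers, and 10.86, 11.02, 11.21 and 10.83 in WT livers. All 4 TRAF2/Casp8 KO livers lay below every one of the other 12. Between the other 3 genotypes the values overlapped.

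In livers labelled TRAF2/Casp8 KO, Apoc3 averaged 9.77 ± 0.25, against 10.98 ± 0.17 in WT livers (SD, n = 4 each). The difference was -1.21 (SE 0.16), which is 2.31-fold lower, with an adjusted p of 0.000574. It was the 1 gene of the 10 called in this comparison, with 0 called higher. Of all probe sets, 2.25% were called in it, 1.44% higher and 0.807% lower. The F test over the 4 genotypes called 1 of the 10, again Apoc3 (adjusted p = 0.00187), while it called 2.83% of all probe sets.

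Both additional deletions went with a higher Apoc3 signal. RIPK3 triple KO livers averaged 10.72 ± 0.27, against 9.77 ± 0.25 in TRAF2/Casp8 KO livers (SD, n = 4 each), a difference of 0.94 (SE 0.16), or 1.92-fold, with an adjusted p of 0.0198. IKKβ triple KO livers averaged 10.66 ± 0.22, 0.89 (SE 0.16) or 1.85-fold above TRAF2/Casp8 KO livers, with an adjusted p of 0.0136. In each of these comparisons Apoc3 was the 1 gene of the 10 called. The share of all probe sets called was 0.264% in the RIPK3 comparison, 0.132% higher and as many lower, and 0.627% in the IKKβ comparison, 0.0731% higher and 0.554% lower.

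These upward calls were less firm than the fall against WT. The call of TRAF2/Casp8 KO against WT held when each of the 16 arrays was left out in turn, with adjusted p up to 0.00324. The RIPK3 call was lost without RIPK3 triple KO replicate 1 (adjusted p = 0.0578), replicate 3 (0.0847) or replicate 4 (0.0666); it was also lost on leaving out TRAF2/Casp8 KO replicate 3 (0.0647) or replicate 4 (0.0893). The IKKβ call was lost without IKKβ triple KO replicate 3 (0.0587), or on leaving out TRAF2/Casp8 KO replicate 3 (0.0543) or replicate 4 (0.0616). Both calls were also lost with limma fitted to the groups compared alone and without both arrays that stand apart, with adjusted p up to 0.106 for RIPK3 triple KO and up to 0.0649 for IKKβ triple KO. In the leave-one-out fits the differences themselves stayed between 0.86 and 1.07 in the RIPK3 comparison and between 0.81 and 0.96 in the IKKβ comparison.

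Whether the triple KO livers reached the WT level of Apoc3 was not settled by 4 arrays a group. RIPK3 triple KO livers lay 0.26 below WT livers, with a 95% interval of the difference from -0.60 to 0.07 (adjusted p = 0.492). IKKβ triple KO livers lay 0.32 below WT livers, with an interval from -0.65 to 0.02 (adjusted p = 0.804). The triple KO genotypes differed from each other by -0.05, IKKβ minus RIPK3, with an interval from -0.39 to 0.28 (adjusted p = 0.916).

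**Figure D1:**
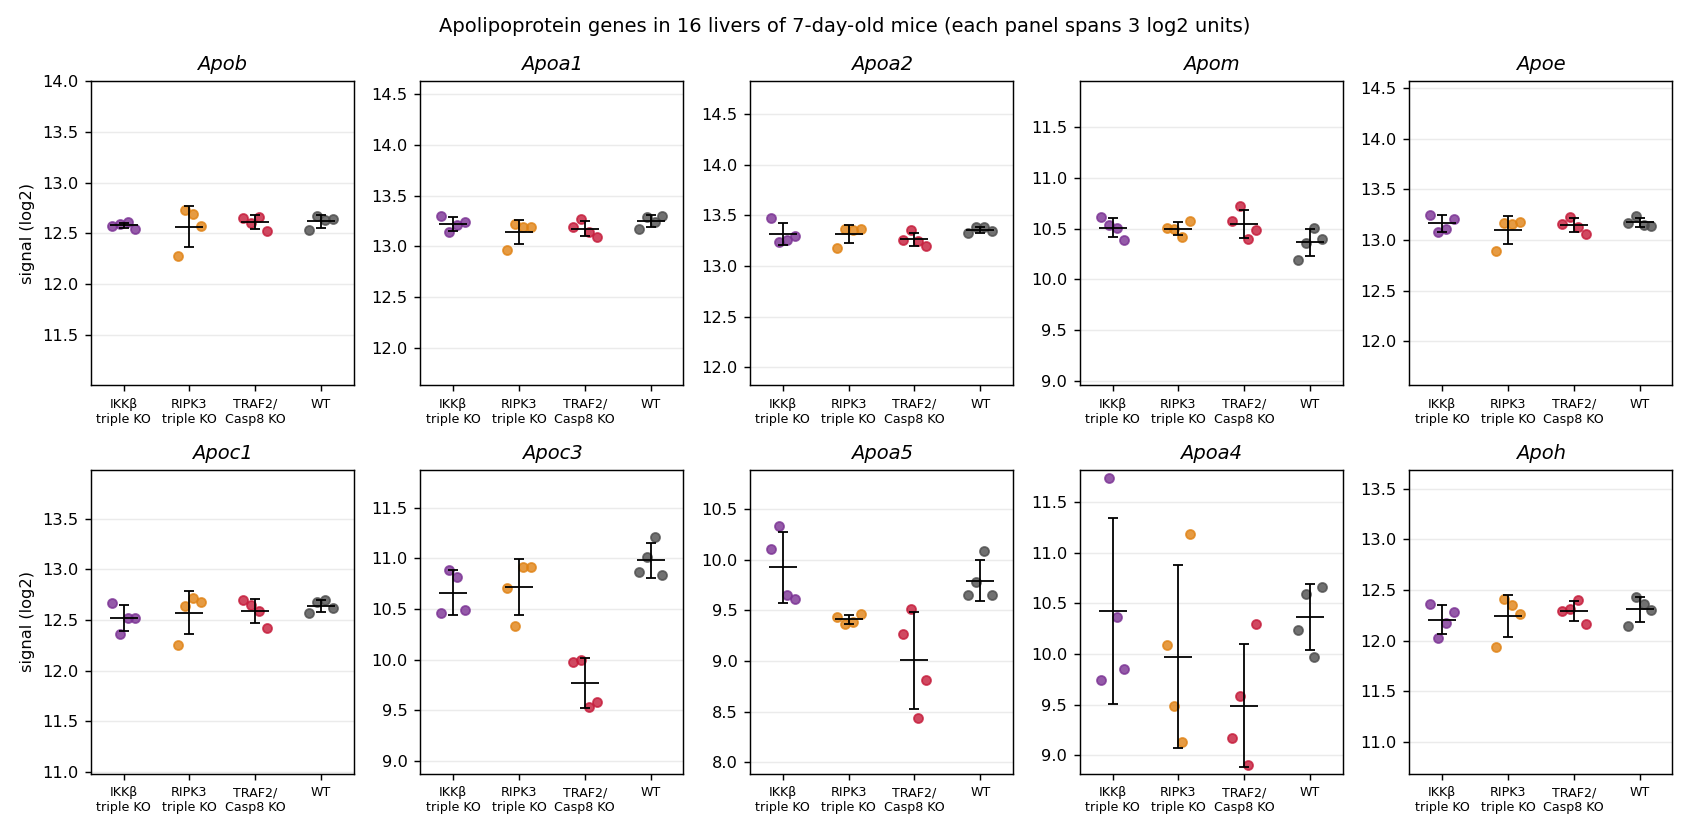
Log2 signal of the 10 apolipoprotein genes in 16 livers, 1 point per animal, with the mean and SD of each genotype (n = 4) in black. Panels have different midpoints and the same height of 3 log2 units; the 4 TRAF2/Casp8 KO livers, at 9.54 to 9.996, lie below all others for Apoc3, and Apoa4 spreads from 8.90 to 11.73.

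Some markers of other cell types, biliary and intestinal ones among them, differed in the same comparisons, and their part in the Apoc3 result was not tested. Of 11 intestinal markers, 3 were called higher in TRAF2/Casp8 KO against WT, with 8 not called. In IKKβ triple KO against TRAF2/Casp8 KO 3 were called lower, with 8 not called, and in RIPK3 triple KO against TRAF2/Casp8 KO 0 were called. Among 8 biliary markers, 4 were called higher in TRAF2/Casp8 KO livers than in WT livers, and the list averaged 5.70 to 5.85 per array in TRAF2/Casp8 KO livers, against 4.98 to 5.20 in WT livers. In IKKβ triple KO livers 3 of the 8 were called lower than in TRAF2/Casp8 KO livers, with a list mean of 4.96 to 5.58 per array, and in RIPK3 triple KO livers 1 of the 8, with 5.55 to 5.65. The 14 neutrophil markers averaged 6.54 to 8.13 per array in RIPK3 triple KO livers, against 7.66 to 8.86 in TRAF2/Casp8 KO livers, with 0 called by limma and 7 at an unadjusted p under 0.05. Of 8 erythroid, 15 Kupffer cell, 11 stellate cell and 10 endothelial markers, limma called 0 in these 3 comparisons. At an unadjusted p under 0.05 there were at most 1, 1, 5 and 2 of them in any of the 3. In a whole tissue, fewer cells of a type and less RNA per cell cannot be told apart.

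Genes for other plasma proteins made by hepatocytes were counted beside it. Of 16 such genes, limma called 0 in each of the 6 comparisons between genotypes, and between 0 and 4 had an unadjusted p under 0.05. Nearest to the threshold were Fgg, the fibrinogen gamma chain, at -0.29 (adjusted p = 0.0502) and Kng1, kininogen, at -0.20 (adjusted p = 0.171), both in RIPK3 triple KO against WT. In TRAF2/Casp8 KO livers that list averaged 12.47 to 12.63 per array, against 12.59 to 12.69 in WT livers, and the median difference of its genes was -0.07, against -0.01 over all genes. These list means lay above every Apoc3 signal and nearer to 13.65, the highest value in the table. Whether differences were compressed there was not tested. A code of a letter and a number in the array names moved with genotype. Arrays labelled RIPK3 triple KO or TRAF2/Casp8 KO carried one number and those labelled IKKβ triple KO or WT another, so number and genotype cannot be told apart in the 4 comparisons across these sets. RIPK3 triple KO and TRAF2/Casp8 KO arrays shared the number and no letter, as did IKKβ triple KO and WT arrays, so there letter and genotype cannot be told apart. In each of the 6 comparisons the groups thus differed in the number, the letters or both.

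Apoa5 encodes the protein that aids lipoprotein lipase and lowers plasma triglyceride. Its signal was 10.10, 10.33, 9.65 and 9.61 in IKKβ triple KO livers, 9.43, 9.36, 9.38 and 9.47 in RIPK3 triple KO livers, 9.27, 9.51, 8.44 and 8.81 in TRAF2/Casp8 KO livers, and 9.65, 9.78, 10.08 and 9.65 in WT livers. TRAF2/Casp8 KO livers lay below all WT livers and all IKKβ triple KO livers, and overlapped RIPK3 triple KO livers. The 4 RIPK3 triple KO livers were close together, below every WT and every IKKβ triple KO liver.

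No difference of Apoa5 passed the threshold. It averaged 9.01 ± 0.48 in TRAF2/Casp8 KO livers and 9.79 ± 0.20 in WT livers (SD, n = 4 each), a difference of -0.78 (SE 0.21) with an adjusted p of 0.0648. IKKβ triple KO livers averaged 9.92 ± 0.35 and lay 0.92 (SE 0.21) above TRAF2/Casp8 KO livers, with an adjusted p of 0.0611. The corresponding difference was 0.40 for RIPK3 triple KO livers (adjusted p = 0.540), with a 95% interval from -0.04 to 0.84, and 0.21 without TRAF2/Casp8 KO replicate 3. Between the triple KO genotypes it was 0.51, IKKβ minus RIPK3 (adjusted p = 0.246).

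Apoa5 sat at the edge of the threshold. Without TRAF2/Casp8 KO replicate 2, the highest of its group, Apoa5 passed in TRAF2/Casp8 KO against WT (adjusted p = 0.0210) and in IKKβ triple KO against TRAF2/Casp8 KO (adjusted p = 0.0178). Over all leave-one-out fits the adjusted p ran from 0.0210 to 0.183 in the first comparison and from 0.0178 to 0.190 in the second. Together with Apoc3, Apoa5 made 2 of 10 genes whose groups did not overlap in each of those comparisons. Such separation was seen for 9.25% of all probe sets in TRAF2/Casp8 KO against WT and for 6.22% in IKKβ triple KO against TRAF2/Casp8 KO.

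Apoa4, a protein of HDL and chylomicrons made by liver and gut, varied most within genotypes. Its signal was 9.74, 11.73, 10.37 and 9.85 in IKKβ triple KO livers, and 10.09, 9.48, 9.13 and 11.19 in RIPK3 triple KO livers. It was 9.17, 9.59, 8.90 and 10.29 in TRAF2/Casp8 KO livers, and 10.23, 10.60, 9.97 and 10.66 in WT livers. The groups overlapped in all 6 comparisons, and the highest liver of each triple KO genotype stood above all WT livers. Apoa4 averaged 9.49 ± 0.61 in TRAF2/Casp8 KO livers and 10.36 ± 0.32 in WT livers (SD, n = 4 each). The difference was -0.87, and its 95% interval ran from -1.87 to 0.12 (adjusted p = 0.441). IKKβ triple KO livers lay 0.93 above TRAF2/Casp8 KO livers, with an interval from -0.06 to 1.93 (adjusted p = 0.587), and 0.50 above them without IKKβ triple KO replicate 2.

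The spread of Apoa4 was shared by a second, much dimmer probe set of the gene. The genotype means of this second probe set were 4.75 to 5.20, near the array medians of 4.90 to 5.05. That probe set followed the first over the 16 arrays (Pearson r = 0.89, Spearman rho = 0.84, on arrays that both probe sets share), and its highest value, 6.37, came from the same IKKβ triple KO liver, replicate 2. A list of 11 intestinal epithelial markers averaged 4.76 in that array, within the 4.61 to 4.79 of its genotype. In each of the other genotypes, replicate 4 had the highest Apoa4 signal. The list averaged 5.22 in RIPK3 triple KO replicate 4 and 5.43 in TRAF2/Casp8 KO replicate 4, each the highest of its genotype. It averaged 4.59 in WT replicate 4, within the 4.43 to 4.65 of its genotype. The mean of the intestinal list was higher in TRAF2/Casp8 KO (5.19 to 5.43) and RIPK3 triple KO livers (5.08 to 5.22) than in WT livers (4.43 to 4.65). In each, 3 of 11 genes were called higher against WT: Guca2b, Tff3 and Vil1. In TRAF2/Casp8 KO against WT these differed by 4.12, 3.38 and 0.99. The median difference of the list was only 0.04 there and 0.01 in RIPK3 triple KO against WT, so the list as a whole did not rise. The part of the list in the Apoa4 values was not tested.

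No difference of the other 7 genes passed the threshold. Apob, the structural protein of VLDL, averaged 12.58 ± 0.03 in IKKβ triple KO livers, 12.57 ± 0.20 in RIPK3 triple KO livers, 12.61 ± 0.07 in TRAF2/Casp8 KO livers and 12.62 ± 0.06 in WT livers (SD, n = 4 each). Apoa1, the main HDL protein, averaged 13.22 ± 0.07 in IKKβ triple KO livers, 13.14 ± 0.12 in RIPK3 triple KO livers, 13.17 ± 0.08 in TRAF2/Casp8 KO livers and 13.25 ± 0.06 in WT livers. Apoe, the receptor ligand, averaged 13.16 ± 0.08 in IKKβ triple KO livers and 13.10 ± 0.14 in RIPK3 triple KO livers. It averaged 13.15 ± 0.07 in TRAF2/Casp8 KO livers and 13.17 ± 0.04 in WT livers. For each of these genes the 4 genotypes overlapped.

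Apoa2, the second HDL protein, ran from 13.18 to 13.47 over the 16 livers. Apoc1, whose protein slows particle uptake, ran from 12.25 to 12.71, and Apoh, which encodes beta-2-glycoprotein I, from 11.94 to 12.43. Apom, whose protein carries sphingosine-1-phosphate on HDL, ran from 10.19 to 10.72 and had the smallest adjusted p of the 7 genes, 0.393, for 0.18 higher in TRAF2/Casp8 KO livers than in WT livers. All differences of the 7 genes in the 6 comparisons lay between -0.12 and 0.18. Their 95% intervals lay within -0.34 and 0.37, so differences above 1.29-fold were outside every interval. Apoa1, Apoa2 and Apoe lay near 13.65, the highest value in the table, and whether their differences were compressed there was not tested.

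The remaining comparisons called none of the 10 genes with limma. RIPK3 triple KO against WT gave 0 of 10 called and 0 of 10 at an unadjusted p under 0.05, where 2.38% of all probe sets were called, 1.48% higher and 0.894% lower. IKKβ triple KO against WT also gave 0 called and 0 at an unadjusted p under 0.05, against 0.0197% of all probe sets called, 0.0141% higher and 0.00562% lower. IKKβ triple KO against RIPK3 triple KO gave 0 called, and 1 of 10, Apoa5, at an unadjusted p under 0.05, against 1.59% of all probe sets called, 0.503% higher and 1.09% lower. Groups without overlap were seen for 1 of the 10 genes in RIPK3 triple KO against TRAF2/Casp8 KO (Apoc3; 6.03% of all probe sets), 1 in RIPK3 triple KO against WT (Apoa5; 7.7%), 0 in IKKβ triple KO against WT (3.57%) and 1 in IKKβ triple KO against RIPK3 triple KO (Apoa5; 7.9%). The median difference of the 10 genes in TRAF2/Casp8 KO against WT was -0.06, against -0.01 over all probe sets. TRAF2/Casp8 KO livers serve in 3 of the comparisons, so those comparisons are not independent of each other.

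**Figure D2:**
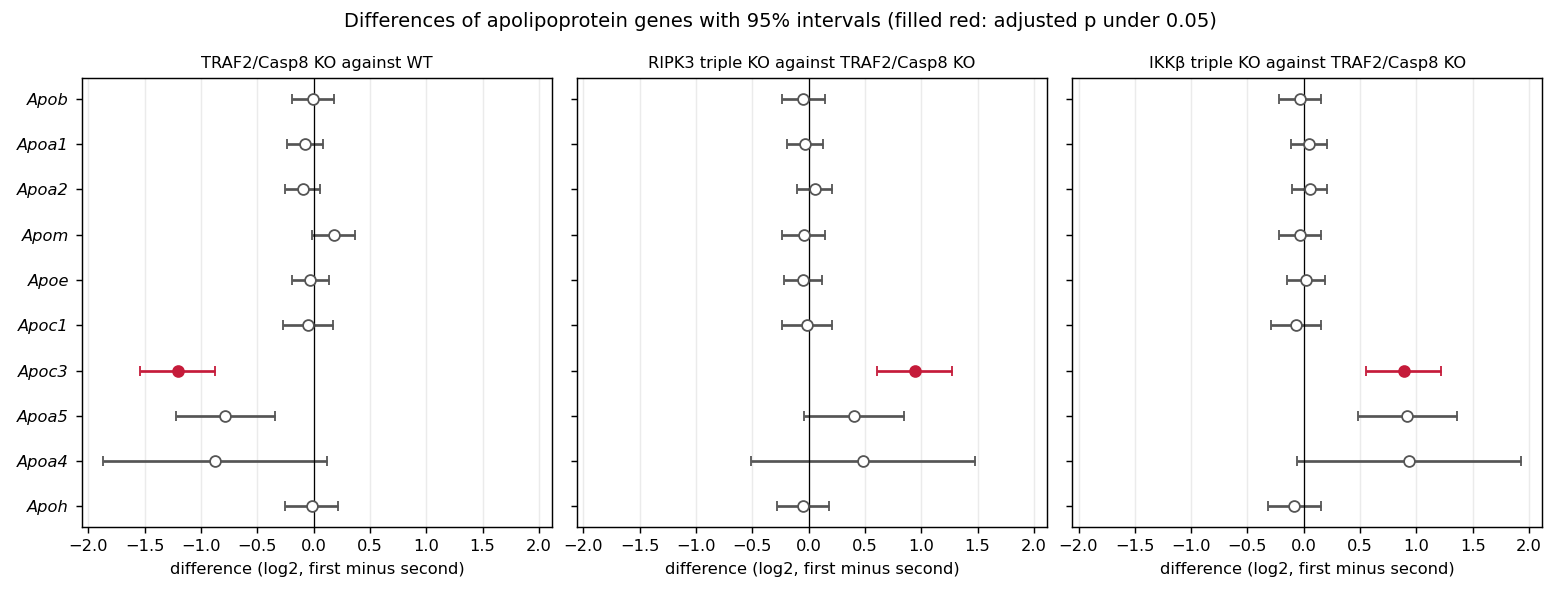
Log2 differences of the 10 genes (points) with 95% intervals from the limma fit, in TRAF2/Casp8 KO against WT, RIPK3 triple KO against TRAF2/Casp8 KO and IKKβ triple KO against TRAF2/Casp8 KO. Filled red points passed an adjusted p of 0.05: Apoc3, at -1.21, 0.94 and 0.89; the intervals of Apoa4 are the widest drawn.

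Within the chromosome 9 cluster Apoc3 was the 1 gene called. Of the cluster's measured neighbours, Pafah1b2 and Sik3 on the Apoa1 side and Zpr1 and Bud13 on the Apoa5 side, limma called 0 in the 6 comparisons; at an unadjusted p under 0.05 Sik3 passed in 3 and Bud13 in 2 of them, none with TRAF2/Casp8 KO against WT. In TRAF2/Casp8 KO against WT the differences were 0.12 for Pafah1b2, -0.01 for Sik3, -0.08 for Apoa1, -1.21 for Apoc3, -0.87 for Apoa4, -0.78 for Apoa5, -0.07 for Zpr1 and 0.12 for Bud13. Apoa1, next to Apoc3, had a 95% interval from -0.24 to 0.08.

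Apoc3 and Apoa1 were also compared within each array, a choice made after their values were seen. Apoc3 minus Apoa1 was -3.60 to -3.21 in TRAF2/Casp8 KO livers, against -2.47 to -2.03 in WT livers, and these ranges do not overlap. The difference between those groups was -1.13. It was 0.97 in RIPK3 triple KO against TRAF2/Casp8 KO and 0.84 in IKKβ triple KO against TRAF2/Casp8 KO. Apoc3 minus Apoa5 differed by -0.42 in TRAF2/Casp8 KO against WT, 0.54 in RIPK3 triple KO against TRAF2/Casp8 KO and -0.03 in IKKβ triple KO against TRAF2/Casp8 KO. Apoc3 minus Apoa4 differed by -0.33, 0.46 and -0.05 in those comparisons, with overlapping ranges in each. Since the pairs were chosen with the values known, no test is given.

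**Figure D3:**
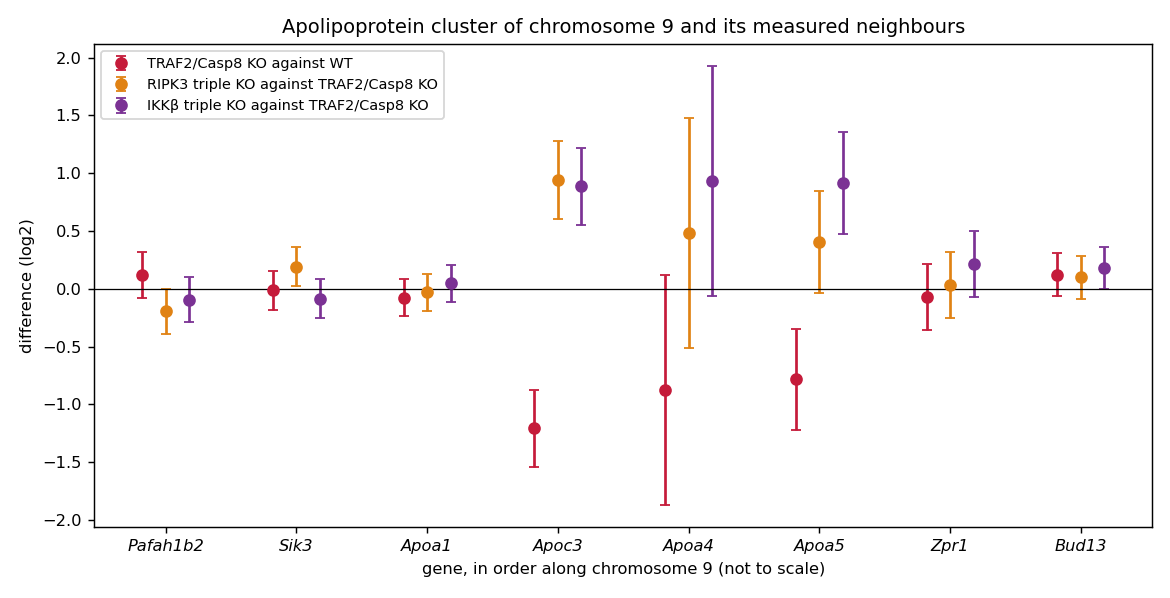
Log2 differences with 95% intervals for the chromosome 9 apolipoprotein genes and their nearest measured neighbours, in gene order and not to scale, in 3 comparisons. Apoc3 lies at -1.21, 0.94 and 0.89, while Apoa1 lies at -0.08 and no flanking gene was called.

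Beside Apoe and Apoc1 on chromosome 7, Apoc2, whose protein activates lipoprotein lipase, and Apoc4 were called in 0 of the 6 comparisons. Apoc2 was 0.25 higher in TRAF2/Casp8 KO livers than in WT livers, with an adjusted p of 0.345, and Apoc4 was 0.18 lower there (log2 difference -0.18, adjusted p = 0.486). Tomm40 was called in none. Nectin2, a cell adhesion gene, rose by 0.49 in TRAF2/Casp8 KO livers against WT livers (adjusted p = 0.0376), a call lost in 6 of 16 leave-one-out fits, those without any 1 of the 4 WT replicates or without TRAF2/Casp8 KO replicate 1 or 4.

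Of the 10 genes, 9 were sorted into 2 sets by r over the 16 arrays. The sets are described without a test, since they were drawn up after the values were seen. Among Apoa1, Apoa2, Apob, Apoc1, Apoe and Apoh, the 15 pairs had Pearson r from 0.48 to 0.91, with a median of 0.78, and Spearman rho from 0.21 to 0.81. Without RIPK3 triple KO replicate 1, which was lowest in its group for all 6 genes, r ran from 0.11 to 0.80 with a median of 0.60. Apoa4, Apoa5 and Apoc3 had r of 0.52 to 0.76 with each other, the highest for Apoa5 with Apoc3. With genotype means removed, these were 0.26 for Apoa4 with Apoa5, 0.31 for Apoa4 with Apoc3 and 0.61 for Apoa5 with Apoc3, and the 15 pairs of the first set ran from 0.55 to 0.91. Between the sets, 18 pairs ran from -0.49 to 0.46 with a median of -0.04. Without RIPK3 triple KO replicate 1 they ran from -0.62 to 0.51, which overlaps the first set. With genotype means removed, Apoa2 with Apoa5 had 0.32, above Apoa4 with Apoa5 and Apoa4 with Apoc3. The division into sets thus rests in part on that array and on the genotype means. Apom stood outside both sets, with r of -0.24 to 0.14. With genotype means removed, its r was 0.79 with Apoa5 and 0.47 with Apoc3. All pairs share the same 16 arrays and the 4 genotype means.

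**Figure D4:**
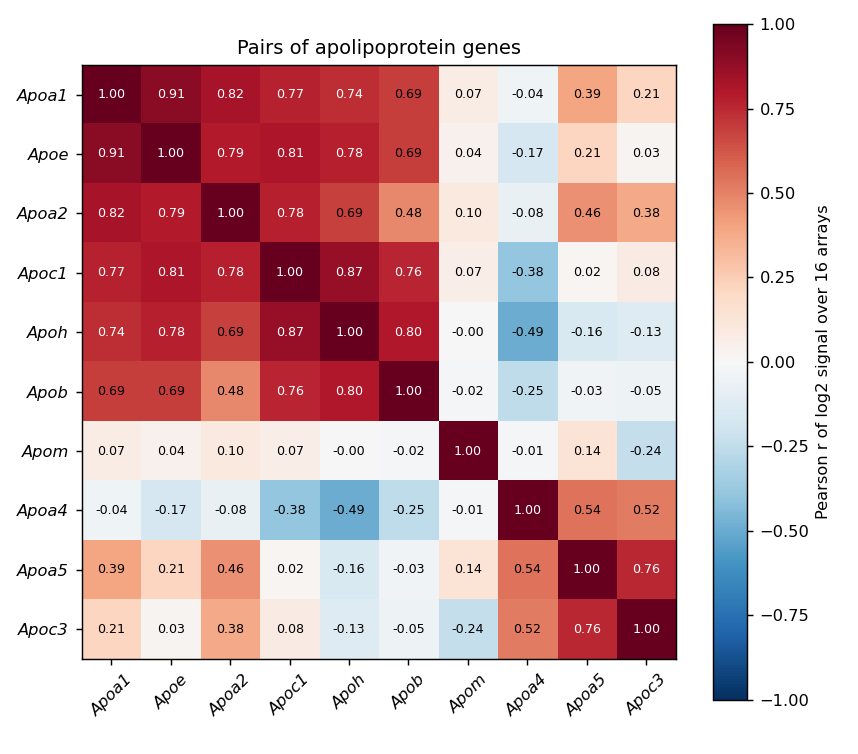
Pearson r of log2 signal over 16 arrays for each pair of the 10 genes, printed in each cell and coloured from -1 (blue) to 1 (red). Apoa1, Apoe, Apoa2, Apoc1, Apoh and Apob form one block with r of 0.48 to 0.91, and Apoa4, Apoa5 and Apoc3 a second with 0.52 to 0.76.

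Over all genes measured, the pattern of Apoc3 was most like that of Slc16a5, Acss2 and Mettl7b, ranked by Pearson r over the 16 arrays. Slc16a5, of the monocarboxylate transporter family, had r = 0.89 and rho = 0.82, Acss2, an acetyl-CoA synthetase, r = 0.89 and rho = 0.81, and Mettl7b, of the methyltransferase-like family, r = 0.88 and rho = 0.75. With genotype means removed, r was 0.51 for Slc16a5, 0.71 for Acss2 and -0.15 for Mettl7b, so the likeness of Mettl7b lay in its genotype means.

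These genes were picked for their likeness to Apoc3 on the same arrays, so their differences restate that choice and are given as a description. Mettl7b was -1.70 in TRAF2/Casp8 KO against WT, 1.32 in RIPK3 triple KO against TRAF2/Casp8 KO and 1.40 in IKKβ triple KO against TRAF2/Casp8 KO. In TRAF2/Casp8 KO against WT, Slc16a5 was -1.63 and Acss2 -0.56.

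Genes that build, receive and process lipoproteins were counted by list. Of 15 genes for assembly and secretion, 0 were called higher and 1 lower in TRAF2/Casp8 KO against WT. That gene was Tm6sf2, which aids lipid loading of VLDL; it averaged 8.98 ± 0.26 in TRAF2/Casp8 KO livers and 9.58 ± 0.16 in WT livers (SD, n = 4 each; adjusted p = 0.0471), and lost its call in 13 of 16 leave-one-out fits. The median difference of the list was -0.05, against -0.01 over all genes. Limma called 0 of the 15 in the other 5 comparisons, where 0 to 3 had an unadjusted p under 0.05.

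Uptake receptors bring lipoprotein remnants into cells. Of 12 such genes, 0 were called higher and 2 lower in TRAF2/Casp8 KO against WT. Sdc1, a heparan sulfate proteoglycan that binds remnants, averaged 8.32 ± 0.11 in TRAF2/Casp8 KO livers and 9.08 ± 0.20 in WT livers (adjusted p = 0.00125). Lrp1, a remnant receptor, averaged 10.65 ± 0.06 in TRAF2/Casp8 KO livers and 11.00 ± 0.08 in WT livers (adjusted p = 0.00810). Both calls held in all 16 leave-one-out fits.

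Sdc1 was higher by 0.56 in IKKβ triple KO livers than in TRAF2/Casp8 KO livers (adjusted p = 0.0250), a call lost in 6 of 16 leave-one-out fits, and lower in RIPK3 triple KO livers than in WT livers by a log2 difference of -0.58 (adjusted p = 0.0101). Among 8 lipases and their regulators limma called 0 in all 6 comparisons, and 0 to 3 had an unadjusted p under 0.05. Their median difference in TRAF2/Casp8 KO against WT was -0.20. Angptl4, a lipase inhibitor, had its smallest adjusted p, 0.163, in IKKβ triple KO against RIPK3 triple KO. Lcat, which esterifies cholesterol on HDL with apolipoprotein A-I as its activator, was -0.28 in TRAF2/Casp8 KO against WT (adjusted p = 0.0710).

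Of 9 genes of HDL formation and cholesterol efflux, 1 was called lower and 0 higher in TRAF2/Casp8 KO against WT, with a list median of -0.28. The gene was Abcg5, which forms a sterol exporter with Abcg8, at 9.04 ± 0.62 in TRAF2/Casp8 KO livers and 10.03 ± 0.12 in WT livers (adjusted p = 0.0481); the call was lost in 13 of 16 leave-one-out fits. Without TRAF2/Casp8 KO replicate 4, the lowest of its group at 8.11, its difference was -0.68. Among 15 other apolipoproteins and HDL-bound proteins, 1 was lower and 0 higher: Saa4, a serum amyloid A protein carried on HDL, at 10.05 ± 0.20 in TRAF2/Casp8 KO livers and 10.81 ± 0.19 in WT livers (adjusted p = 0.00901).

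That list of 15 also held genes called between other genotypes. Clu, which encodes apolipoprotein J, averaged 11.92 ± 0.14 in IKKβ triple KO livers and 12.46 ± 0.21 in TRAF2/Casp8 KO livers (adjusted p = 0.0272). Apon, which encodes apolipoprotein N, averaged 10.21 ± 0.21 in RIPK3 triple KO livers and 9.14 ± 0.55 in WT livers (adjusted p = 0.0185), and was lower by a log2 difference of -1.25 in IKKβ triple KO livers than in RIPK3 triple KO livers (adjusted p = 0.0112). The call of Clu was lost in 6 and that of Apon against WT in 3 of 16 leave-one-out fits.

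Of 22 regulators of apolipoprotein transcription, 1 was called higher and 3 lower in TRAF2/Casp8 KO against WT, with a list median of -0.06. Nr5a2, the nuclear receptor LRH-1, averaged 9.32 ± 0.13 in TRAF2/Casp8 KO livers and 8.61 ± 0.15 in WT livers (adjusted p = 0.00156). Rxra, the partner of many nuclear receptors, averaged 9.15 ± 0.07 in TRAF2/Casp8 KO livers and 9.62 ± 0.07 in WT livers (adjusted p = 0.00420). Srebf1, the driver of fatty acid synthesis genes, averaged 7.88 ± 0.25 in TRAF2/Casp8 KO livers and 8.91 ± 0.39 in WT livers (adjusted p = 0.00691).

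These calls of Nr5a2, Rxra and Srebf1 held in all 16 leave-one-out fits. Nr0b2, the repressor SHP, averaged 6.93 ± 0.24 in TRAF2/Casp8 KO livers and 7.74 ± 0.20 in WT livers (adjusted p = 0.0193), a call lost in 3 of 16. In IKKβ triple KO against TRAF2/Casp8 KO, 1 of the 22 was called higher, Srebf1 by 0.90 (adjusted p = 0.0380), a call lost in 10 of 16. RIPK3 triple KO against TRAF2/Casp8 KO gave 0 of the 22 with limma, with 4 at an unadjusted p under 0.05, and IKKβ triple KO against WT gave 0, with 3. In RIPK3 triple KO against WT 1 was higher, Nr5a2 by 0.73 (adjusted p = 0.00155), and 1 lower, Srebf2, a driver of cholesterol synthesis genes named here to complete the count, at -0.41 (adjusted p = 0.0272). IKKβ triple KO against RIPK3 triple KO gave 1 higher, Srebf2 by 0.38 (adjusted p = 0.0456), and 1 lower, Nr5a2 at -0.49 (adjusted p = 0.0347), a call lost in 6 of 16 leave-one-out fits.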

How the data were processed

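The authors deposited RMA values, per the submitters' processing notes, as a table of log2 signals. Neither the version of RMA nor its probe set definition is given in the sources used here. That the logarithm is to base 2 was inferred from the range, 0.89 to 13.65. Array medians were 4.90 to 5.05. All 16 columns were used and nothing was renormalised or filtered. Per the labels, 100 ng of RNA entered each labelling reaction, and mouse numbers differ between samples. One limma model of the 4 genotypes (limma 3.58.1, R 4.3.3; two-sided moderated tests, no intensity trend) gave all comparisons, with Benjamini-Hochberg adjustment over all 35556 probe sets; intervals are unadjusted 95% intervals from that model. In simulated data for TRAF2/Casp8 KO against WT, limma called 45% of changes of 0.5, 88% of 1 and 96% of 2. Small changes can thus be missed. Of limma's calls in the simulated data, 7.47% were false, a share above the threshold of 0.05. The number of arrays limits the precision.

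Of the probe sets, 21218 carry 1 gene symbol, 1881 several and 12457 none. Genes outside the 10 were named where they were among the up to 4 called genes of a pathway list with the smallest adjusted p (up to 2 where none was called), the 2 nearest measured genes on either side of a cluster, the 3 most like Apoc3 or a targeted gene. The members and all lists were chosen with earlier results of these data known. The CAAAGNNCA motif was taken after its exact forms, CAAAGGTCA and CAAAGTCCA, matched 0 of the 12 windows. Alternatives were another scaling, filters, probe set choice, array weights, blocks and leaving out arrays. Same-numbered arrays of different genotypes correlated in their deviations at a median of 0.01, from -0.10 to 0.16. Differently numbered arrays had a median of 0.002, from -0.21 to 0.23. No pairing by replicate number was seen in these values, which cannot exclude one.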

Additional observations from a re-analysis of the deposited data

Results flagged for a closer look

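In RIPK3 triple KO livers, replicate 1 stood far below the other 3 for 4 apolipoprotein genes by Dixon's test at the 95% level. Its signal was 12.959 for Apoa1, 13.179 for Apoa2, 12.252 for Apoc1 and 12.889 for Apoe. The test was made on 40 sets of 4 values and marked 4, where chance marks about 1 in 20. All 4 marks fell on the same array, so they are not 4 separate events. That array was also the lowest of all 16 for the hepatocyte plasma protein list, at 12.43, the neutrophil list, at 6.54, and the erythroid list, at 5.90. Its value for Apoc3 was 10.71, inside the range of its group.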

How the results depend on the processing

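Apoc3 kept its fall in TRAF2/Casp8 KO against WT under all 10 other settings and all 16 leave-one-out fits, with differences from -1.28 to -1.13. The count of apolipoprotein genes called in RIPK3 triple KO against TRAF2/Casp8 KO, 1 as reported, was 0 when limma was fitted to the groups compared alone (adjusted p of Apoc3 = 0.106), 0 with the replicate block (0.0613) and 0 without both arrays that stand apart (0.0971), a setting chosen after seeing the data. In IKKβ triple KO against TRAF2/Casp8 KO it was 0 with the groups compared alone (0.0649) and 0 without both arrays (0.0643), and 2 without the dimmest probe sets and with 1 probe set per gene, where Apoa5 joined. In TRAF2/Casp8 KO against WT it was 2 under those settings and with array weights, as was the F test's count. Leaving out 1 array at a time gave 1 to 2 calls in TRAF2/Casp8 KO against WT, 0 to 1 in RIPK3 triple KO against TRAF2/Casp8 KO, 0 to 2 in IKKβ triple KO against TRAF2/Casp8 KO, 1 to 2 in the F test and 0 in the other comparisons. The background counts moved too: 800 probe sets called in TRAF2/Casp8 KO against WT became 420 to 902 with 1 array left out, 94 in RIPK3 triple KO against TRAF2/Casp8 KO became 39 to 117, and 223 in IKKβ triple KO against TRAF2/Casp8 KO became 115 to 312. Some settings used fewer arrays or probe sets, and the causes of these changes in the counts were not tested. No called difference of the 10 genes changed direction. For Apoa1, Apoa2, Apob, Apoc1, Apoe, Apom and Apoh the arrays limit the intervals to 1.29-fold. Apoa4 and Apoa5 were also not called in the reported fit, and their intervals were wider. In IKKβ triple KO against TRAF2/Casp8 KO these reached a log2 difference of 1.93 for Apoa4 and 1.36 for Apoa5.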
